A study of Mus musculus with 24 samples.

Results

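The matrix metalloproteinases (Mmp), their tissue inhibitors (Timp) and the Adamts proteases were examined in liver RNA of mice with and without N-RAS under 2 kinds of chronic liver injury. Members were chosen by gene symbol: every probe set of the array with a single symbol of these 3 families was taken, which gave 46 genes (23 Mmp, 4 Timp and 19 Adamts) of the 21144 genes tested. Each of them was read by 1 probe set. The measurement was the log2 signal on an Affymetrix mouse expression array, with 1 liver per array and 3 livers in each of 8 groups. In the CCl4 experiment, N-RAS-/- and N-RAS+/+ mice were injected with the hepatotoxin CCl4 in corn oil or with corn oil alone (oil). In the BDL experiment, mice of both genotypes underwent ligation of the bile duct (BDL), which dams bile inside the liver, or a sham operation. Livers were taken at 28 days from animals labelled as males that entered the study at 8 to 10 weeks of age. The N-RAS-/- mice lack the gene in all cells, and both genotypes were bred on C57BL/6J, so that no cell type can be assigned to a genotype difference. Arrays are named N01 to N12 (BDL experiment) and N21 to N32 (CCl4 experiment).

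Mmp are zinc-dependent proteases that are made as inactive proenzymes and cut collagens, gelatin, elastin, laminins and other matrix proteins. Timp proteins bind the active site of Mmp and block it. Adamts proteases are secreted relatives that trim procollagen, cut proteoglycans or process plasma proteins. In fibrotic liver, stellate cells and macrophages are known sources of these proteases and of Timp1, and scar forms when matrix is laid down faster than it is removed.

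The labels were checked first. Nras, the deleted gene, read 4.55 to 5.55 on the 12 N-RAS-/- arrays and 5.92 to 8.04 on the 12 N-RAS+/+ arrays, without overlap. Markers of hepatocytes were high on every array (mean of 5 measured markers of 6, 12.15 to 12.76). On 6 arrays Y-linked signal (mean of 4 genes) lay at 3.0 to 3.59, where the others had 6.84 to 8.25, although all mice were labelled as males. These were N-RAS-/- sham N07, N08 and N09, N-RAS+/+ sham N01 and N03 and N-RAS-/- oil N28. Since all N-RAS-/- sham arrays and no BDL array were among them, BDL and the low Y-linked signal cannot be told apart in N-RAS-/- mice, and in N-RAS+/+ mice only sham array N02 remains without them. Some fits below carry the Y-linked signal as a term. In the BDL experiment this signal varied widely inside 1 group only, N-RAS+/+ sham. The term there rests almost only on N02 against N01 and N03. Such a fit cannot decide whether a BDL call in N-RAS-/- livers holds. N-RAS-/- BDL array N12 held skeletal muscle RNA (Acta1 10.88, against at most 5.10 elsewhere). In a bulk liver sample, more cells of a type and more RNA per cell cannot be told apart.

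Of the 46 genes, 17 stayed below a log2 signal of 5 on all 24 arrays and are called low throughout here. Group differences are log2 fold changes ± standard error from limma with 3 livers per group, p values were adjusted over all 21144 genes, and genes with an adjusted p under 0.05 are called. Signals are levels of 1 probe set and were never compared between genes. In an exact permutation test, 3 livers against 3 cannot give a p below 0.1.

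Of the family, 10 Mmp genes lie side by side on mouse chromosome 9 in the order Mmp13, Mmp12, Mmp1b, Mmp3, Mmp1a, Mmp10, Mmp8, Mmp27, Mmp20 and Mmp7, with 0 other protein-coding genes annotated between them. RefSeq promoter windows (GRCm38.p6, 250 bases before to 50 after a start site) matched 32 of the 46 genes, including all 10 of this group. The binding motif of AP-1, the Fos and Jun factor, was searched as TGANTCA, which reads the same on both strands. It stood in the window of 8 of these 10 genes and of 0 of the 22 other members with a window, against 7.81% of all 32851 windows. The 100 bases before the start are shown for 5 genes with a match whose values are described below, and for Mmp8, a neighbour in whose window the letters were not found. Capitals mark the motif.
Mmp13, chr9:7272414-7272513, plus strand: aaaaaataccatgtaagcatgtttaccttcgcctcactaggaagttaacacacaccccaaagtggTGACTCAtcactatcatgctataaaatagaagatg
Mmp12, chr9:7347274-7347373, plus strand: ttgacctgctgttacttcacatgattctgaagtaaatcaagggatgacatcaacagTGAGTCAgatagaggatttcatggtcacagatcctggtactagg
Mmp3, chr9:7445722-7445821, plus strand: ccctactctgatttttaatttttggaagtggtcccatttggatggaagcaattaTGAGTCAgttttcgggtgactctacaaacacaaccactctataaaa
Mmp10, chr9:7502242-7502341, plus strand: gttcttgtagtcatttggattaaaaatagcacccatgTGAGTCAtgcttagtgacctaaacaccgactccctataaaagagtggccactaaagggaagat
Mmp7, chr9:7691990-7692089, plus strand: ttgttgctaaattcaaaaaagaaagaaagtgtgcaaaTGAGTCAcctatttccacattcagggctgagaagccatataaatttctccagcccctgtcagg
Mmp8, chr9:7558329-7558428, plus strand: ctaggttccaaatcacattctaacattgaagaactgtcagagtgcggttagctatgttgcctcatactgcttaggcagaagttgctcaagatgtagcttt
The motif began 35 bases before the start of Mmp13, 44 before Mmp12, 46 before Mmp3 and 63 before both Mmp10 and Mmp7. Mmp12 and Mmp7 have 2 annotated starts each, and the one with the match is shown. Mmp1a (73 bases), Mmp1b (93) and Mmp20 (95) held it as well, and Mmp8 and Mmp27 did not. The 10 neighbours behaved differently in the livers, as described below. Mmp12 was called in all 4 injury comparisons, Mmp13 after CCl4 in both genotypes and after BDL in N-RAS-/- livers, and Mmp7 after BDL, whereas Mmp1a, Mmp1b and Mmp20 were low throughout and were called in no comparison. Mmp3 and Mmp10, which also hold the motif, were low throughout and were called higher in no injury comparison. Of the genes without it, Mmp8 was called higher in all 4 injury comparisons and Mmp27 after CCl4 in N-RAS+/+ livers. The PEA3 motif of Ets factors (AGGAAG, both strands, no overlap with the AP-1 letters) was found in 15 of the 32 members, against 35.35% of all windows. A match of letters is not a measured binding site.

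Most calls in the family came from the injury comparisons. After CCl4, 8 of the 46 genes rose and 1 fell in N-RAS-/- livers, and 11 rose and 1 fell in N-RAS+/+ livers. Over all genes tested, 13.6% were called higher and 9.19% lower in N-RAS-/- livers, and 8.08% higher and 7.16% lower in N-RAS+/+ livers. After BDL, 13 members rose and 1 fell in N-RAS-/- livers (7.18% and 4.05% of all genes), and 12 rose and 2 fell in N-RAS+/+ livers (4.51% and 2.70%). The median log2 fold change of the 46 genes was 0.16 and 0.20 after CCl4 in N-RAS-/- and N-RAS+/+ livers and 0.27 and 0.11 after BDL, against -0.02, 0.01, -0.03 and -0.01 over all genes. Mmp8, Mmp12, Timp1 and Adamts4 rose in all 4 injury comparisons. The N-RAS+/+ CCl4 count was 5 without array N25. The N-RAS+/+ BDL count was 7, 9, 8 and 9 without N01, N03, N04 and N06, 2 without both sham arrays of low Y-linked signal and 3 with that signal as a term, and the N-RAS-/- BDL count was 1 with that term, Mmp12, and 13 without N12.

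**Figure D1:**
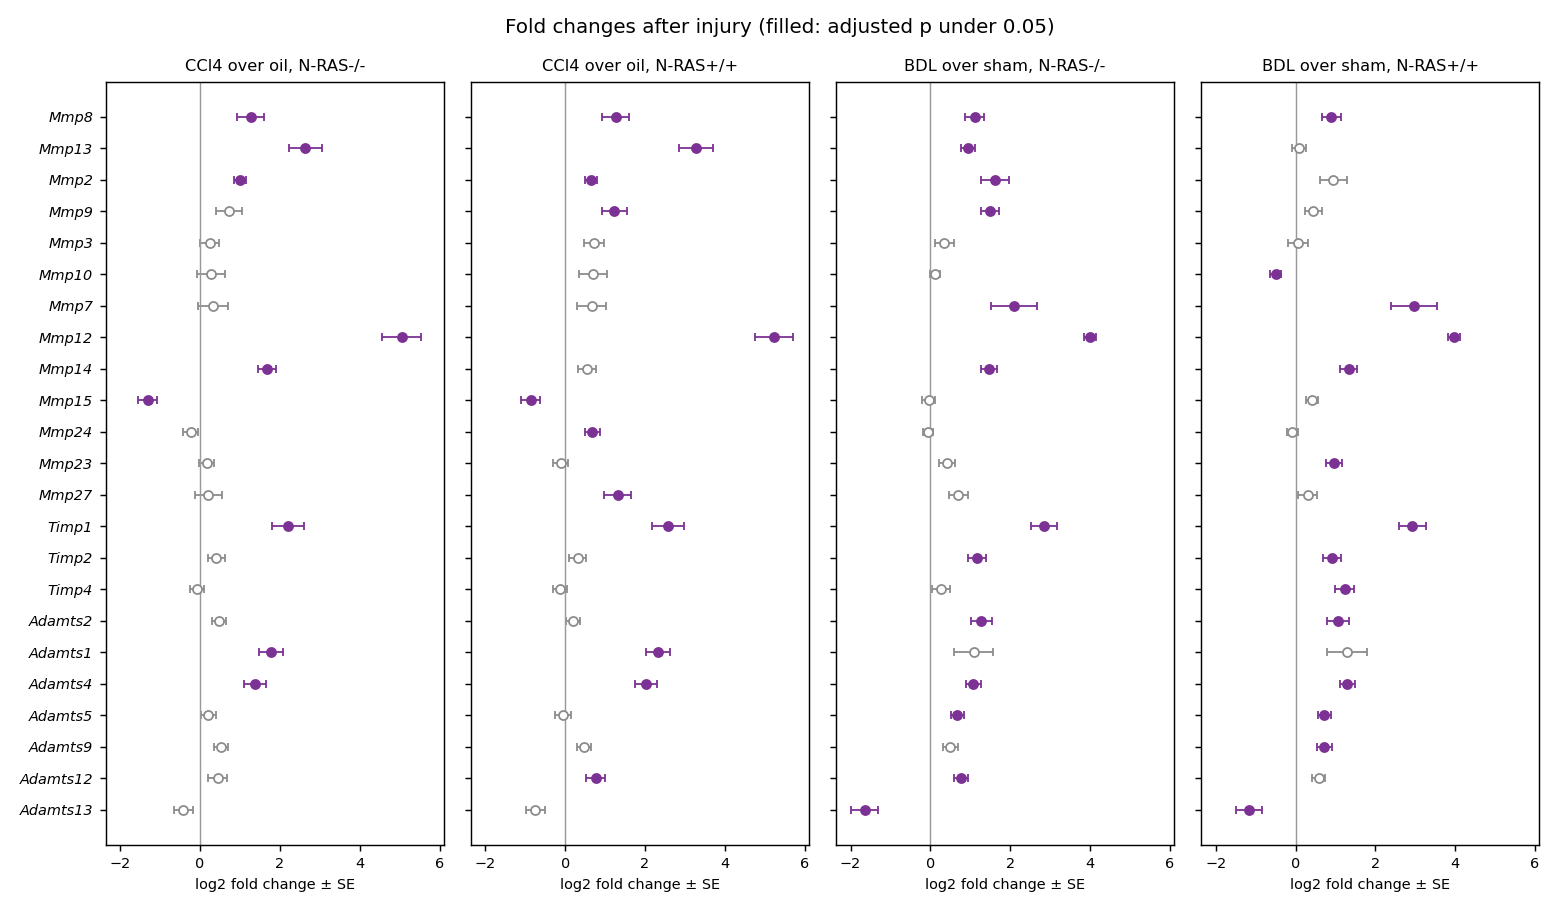
Log2 fold change ± SE (x axis) of the 23 members called in at least 1 comparison (rows, ordered by role) after CCl4 over oil and after BDL over sham, each with 3 livers per group. Filled points passed an adjusted p under 0.05. Mmp12 has the largest fold change in each panel, and Mmp15 is called below 0 after CCl4 in both genotypes.

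Mmp12, the macrophage metalloelastase that cuts elastin, had the largest fold changes of the family. Mmp12 read 11.09, 11.17 and 9.58 in N-RAS-/- CCl4 livers, against 5.86, 5.45 and 5.40 in N-RAS-/- oil livers. Mmp12 in N-RAS+/+ mice read 9.34, 10.64 and 10.62 after CCl4, against 4.01, 4.89 and 6.0 after oil. The rise was 5.05 ± 0.48 (adjusted p = 3.35e-06) in N-RAS-/- livers, 33.0-fold, and 5.24 ± 0.48 (adjusted p = 5.68e-06) in N-RAS+/+ livers. Every CCl4 liver lay more than 3 log2 units above every oil liver of its genotype. Mmp12 read 9.50, 9.05 and 9.15 in N-RAS-/- BDL livers, against 5.25, 5.07 and 5.38 in N-RAS-/- sham livers. Mmp12 in N-RAS+/+ mice read 8.52, 8.58 and 8.32 after BDL, against 4.41, 4.64 and 4.51 after sham. BDL raised it by 4.0 ± 0.15 (adjusted p = 7.75e-09) and 3.96 ± 0.15 (adjusted p = 8.91e-09) in the same order of genotypes, and all BDL livers stood above all sham livers. Without the sham arrays of low Y-linked signal the N-RAS+/+ rise was 3.84, set against sham array N02 alone. With that signal as a term the N-RAS-/- value was 3.84 (adjusted p = 1.75e-05). That term cannot separate BDL from the signal in N-RAS-/- livers, so it does not show whether the call holds. The mean of 9 macrophage markers also stood higher after injury, although the N-RAS-/- CCl4 and oil arrays overlapped. Its array values were 8.02 to 8.55 in N-RAS-/- CCl4 livers and 7.74 to 8.09 in N-RAS-/- oil livers, and 8.11 to 8.60 in N-RAS+/+ CCl4 livers and 7.29 to 7.73 in N-RAS+/+ oil livers. After BDL it was 8.74 to 9.14 in N-RAS-/- livers, against 7.89 to 7.95 after sham, and 8.34 to 8.91 in N-RAS+/+ livers, against 7.72 to 7.85 after sham. The 9 markers did not move together. In N-RAS-/- CCl4 livers Gpnmb and Cd68 lay above all N-RAS-/- oil livers, and Clec4f, Vsig4 and Cd5l below them. Gpnmb read 8.22, 8.0 and 6.70 after CCl4, against 4.01, 4.38 and 5.81 after oil. Clec4f read 8.55, 8.29 and 8.24, against 9.32, 8.94 and 9.52. The part of macrophage number in the Mmp12 values was not tested.

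The collagenases cut fibrillar collagen, and Mmp13 is the main interstitial collagenase of rodents. Mmp13 read 7.10, 7.48 and 5.56 in N-RAS-/- CCl4 livers, against 4.08, 3.80 and 4.34 in N-RAS-/- oil livers. Mmp13 in N-RAS+/+ mice read 6.25, 7.82 and 7.21 after CCl4, against 3.99, 3.90 and 3.55 after oil. Mmp13 was near the floor of the array in oil livers of both genotypes and was above log2 5 in all CCl4 livers. The rise was 2.64 ± 0.42 (adjusted p = 3.28e-04) in N-RAS-/- livers and 3.28 ± 0.42 (adjusted p = 1.02e-04) in N-RAS+/+ livers. Mmp13 read 4.38, 4.64 and 4.53 in N-RAS-/- BDL livers, against 3.39, 3.88 and 3.45 in N-RAS-/- sham livers. Mmp13 in N-RAS+/+ mice read 4.16, 3.94 and 4.21 after BDL, against 3.73, 4.24 and 4.11 after sham. After BDL no liver reached log2 5. The N-RAS-/- livers rose by 0.94 ± 0.17 (adjusted p = 0.00265), and the N-RAS+/+ livers differed by 0.08 ± 0.17 (adjusted p = 0.879), with overlapping groups. With signals under log2 5 set to 5, the N-RAS-/- rise after CCl4 was 1.71, adjusted p = 0.0514, which was not called, the N-RAS+/+ rise was 2.09 (adjusted p = 0.0334), and no BDL difference was left. With the Y-linked signal as a term, the N-RAS-/- difference after BDL was 0.69, adjusted p = 0.321.

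Mmp8 is the collagenase stored in neutrophil granules. Mmp8 read 4.73, 5.32 and 3.89 in N-RAS-/- CCl4 livers, against 3.18, 3.26 and 3.70 in N-RAS-/- oil livers. Mmp8 in N-RAS+/+ mice read 4.08, 4.90 and 5.47 after CCl4, against 3.26, 3.76 and 3.64 after oil. All CCl4 livers lay above all oil livers of their genotype, by 1.27 ± 0.34 (adjusted p = 0.0148) and 1.26 ± 0.34 (adjusted p = 0.0212). Mmp8 read 4.21, 4.83 and 4.56 in N-RAS-/- BDL livers, against 3.65, 3.38 and 3.23 in N-RAS-/- sham livers. Mmp8 in N-RAS+/+ mice read 4.17, 3.64 and 4.74 after BDL, against 3.22, 3.47 and 3.16 after sham. BDL livers were higher by 1.11 ± 0.24 (adjusted p = 0.00774) in N-RAS-/- mice and 0.90 ± 0.24 (adjusted p = 0.0358) in N-RAS+/+ mice. The levels were low, since only 2 arrays passed log2 5 (N26 with 5.47 and N31 with 5.32). With signals under log2 5 set to 5, none of the 4 calls held, and the CCl4 values were 0.11, adjusted p = 0.878 in N-RAS-/- livers and 0.16, adjusted p = 0.666 in N-RAS+/+ livers. The CCl4 call was lost in N-RAS-/- livers without N27 or N31 (0.93 to 1.17, adjusted p 0.0534 to 0.0792) and in N-RAS+/+ livers without N21, N23, N25 or N26 (0.94 to 1.31, adjusted p 0.0515 to 0.106), and the N-RAS+/+ BDL call without N01, N03, N04 or N06 (0.62 to 0.90, adjusted p 0.0883 to 0.128). The mean of 7 neutrophil markers was 5.13 to 5.73 in N-RAS-/- CCl4 livers and 4.39 to 5.20 in N-RAS-/- oil livers, and 5.49 to 5.81 and 4.59 to 4.90 in N-RAS+/+ CCl4 and oil livers. After BDL it was 5.23 to 6.13 in N-RAS-/- livers, against 4.32 to 4.54 after sham, and 4.91 to 5.14 in N-RAS+/+ livers, against 4.31 to 4.87 after sham. The 7 markers did not move together. S100a8 lay above the controls in all 4 injury comparisons, and Ly6g overlapped with them in all 4. The part of the neutrophil marker mean in the Mmp8 values was not tested. Mmp1a and Mmp1b, the rodent counterparts of the human interstitial collagenase, did not leave the range of 2.37 to 3.40 on any array.

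The gelatinases degrade denatured collagen and the collagen of basement membranes. Mmp2, which stellate cells are known to make, rose in 3 of the 4 injury comparisons. Mmp2 read 6.76, 6.96 and 6.72 in N-RAS-/- CCl4 livers, against 5.95, 5.83 and 5.63 in N-RAS-/- oil livers. Mmp2 in N-RAS+/+ mice read 6.36, 6.74 and 6.70 after CCl4, against 5.92, 6.03 and 5.94 after oil. Both genotypes rose without overlap, by 1.01 ± 0.15 (adjusted p = 1.86e-04) and 0.64 ± 0.15 (adjusted p = 0.00913), the N-RAS+/+ call being lost without N25 (0.57, adjusted p = 0.0505). Mmp2 read 7.19, 6.60 and 7.61 in N-RAS-/- BDL livers, against 5.50, 5.26 and 5.78 in N-RAS-/- sham livers. Mmp2 in N-RAS+/+ mice read 7.83, 6.54 and 6.60 after BDL, against 6.10, 6.46 and 5.55 after sham. The N-RAS-/- livers rose by 1.62 ± 0.34 (adjusted p = 0.00672), while the N-RAS+/+ difference, led by N04, was 0.95 ± 0.34 (adjusted p = 0.122). The highest N-RAS-/- BDL value was that of N12, the array with muscle RNA, which was also highest for Timp2 and Adamts2 below. The part of this RNA in these values was not tested, and the 3 calls in N-RAS-/- livers held without N12.

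Mmp9, the gelatinase of neutrophils and macrophages, was called in 1 genotype per injury. Mmp9 read 6.52, 6.10 and 5.02 in N-RAS-/- CCl4 livers, against 5.62, 4.94 and 4.93 in N-RAS-/- oil livers. Mmp9 in N-RAS+/+ mice read 5.85, 6.27 and 5.41 after CCl4, against 4.35, 4.70 and 4.78 after oil. The N-RAS+/+ livers rose by 1.23 ± 0.32 (adjusted p = 0.0170). The N-RAS-/- groups overlapped, N32 lying below oil array N27, and their difference was 0.72 ± 0.32 (adjusted p = 0.132). Without N32 it passed the test (1.15, adjusted p = 0.00759), and the N-RAS+/+ call was lost without N21 or N25 (1.02 to 1.10, adjusted p 0.0743 to 0.0935). Mmp9 read 5.62, 6.07 and 6.24 in N-RAS-/- BDL livers, against 4.52, 4.42 and 4.51 in N-RAS-/- sham livers. Mmp9 in N-RAS+/+ mice read 5.14, 5.52 and 5.11 after BDL, against 4.91, 5.22 and 4.29 after sham. After BDL the N-RAS-/- livers rose by 1.49 ± 0.22 (adjusted p = 5.82e-04) and the N-RAS+/+ livers differed by 0.45 ± 0.22 (adjusted p = 0.286). With the Y-linked signal as a term, the N-RAS-/- value was 0.90, adjusted p = 0.244. The BDL effects of the genotypes differed by 1.04 ± 0.31 (adjusted p = 0.595), which did not pass the test.

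Matrilysin, Mmp7, is made by epithelial cells, bile duct cells among them, and rose after BDL. Mmp7 read 5.03, 4.76 and 7.67 in N-RAS-/- BDL livers, against 3.90, 3.67 and 3.62 in N-RAS-/- sham livers. Mmp7 in N-RAS+/+ mice read 7.11, 5.73 and 6.14 after BDL, against 3.94, 3.17 and 2.99 after sham. The rise was 2.09 ± 0.58 (adjusted p = 0.0326) in N-RAS-/- livers, where N12 stood far above N10 and N11, and 2.96 ± 0.58 (adjusted p = 0.00649) in N-RAS+/+ livers. The N-RAS-/- call was lost without N07, N08, N09 or N12 (1.17 to 2.18, adjusted p 0.0511 to 0.0928). All sham livers lay under log2 5, and with such signals set to 5 neither call held (0.90, adjusted p = 0.631 in N-RAS-/- livers and 1.33, adjusted p = 0.417 in N-RAS+/+ livers). Mmp7 read 4.30, 5.60 and 4.31 in N-RAS-/- CCl4 livers, against 4.23, 4.19 and 4.84 in N-RAS-/- oil livers. Mmp7 in N-RAS+/+ mice read 3.15, 4.0 and 4.37 after CCl4, against 3.75, 2.85 and 2.95 after oil. Here the groups overlapped in both genotypes. Mmp7 differed by 0.32 ± 0.37 (adjusted p = 0.601) in N-RAS-/- mice, and in N-RAS+/+ mice by 0.66 ± 0.37 (adjusted p = 0.279). The 2 arrays with the highest Mmp7, N12 (7.67) and N04 (7.11), also had the highest means of 6 bile duct markers, 8.38 and 8.36. The mean of these markers was at 7.18 to 7.60 on the other BDL arrays and at 5.34 to 6.77 on all others. The 6 markers did not move together after CCl4. Sox9 read 9.99, 10.36 and 10.22 in N-RAS+/+ CCl4 livers, against 7.61, 7.91 and 7.98 after oil. Spp1 also lay above all N-RAS+/+ oil livers there, and Krt19, Krt7, Epcam and Cldn4 overlapped with them. The part of the bile duct markers in the Mmp7 values was not tested.

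**Figure D2:**
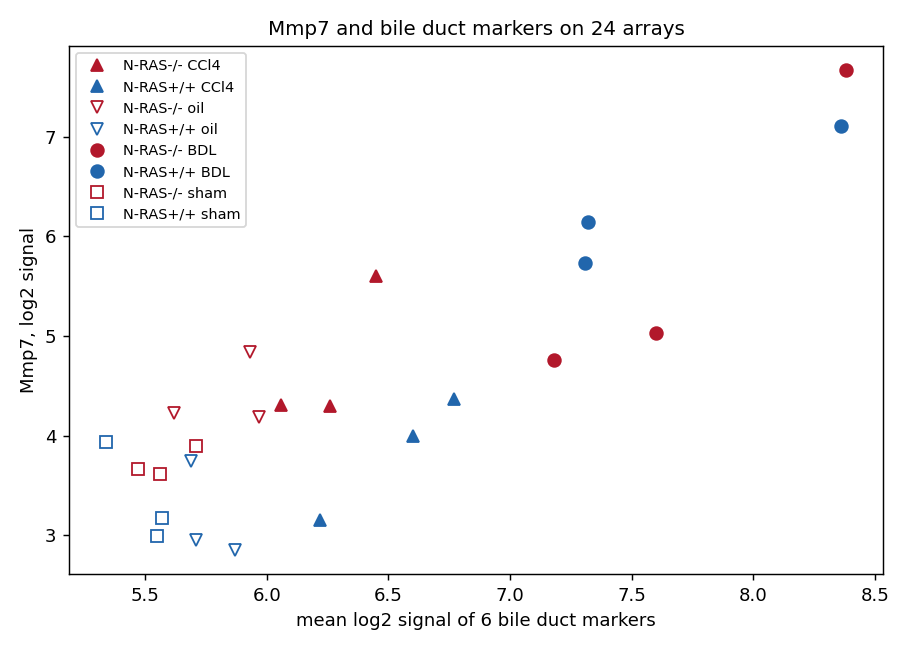
Mmp7 log2 signal (y axis) against the mean log2 signal of 6 bile duct markers (x axis) on the 24 arrays, each point being 1 liver. The 6 BDL livers lie to the right of all others, and N-RAS-/- N12 and N-RAS+/+ N04 are the uppermost points.

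Of the stromelysins, which cut proteoglycans and activate other proenzymes, none rose after injury at the adjusted threshold. Mmp10 fell after BDL in N-RAS+/+ livers by 0.50 ± 0.13 on the log2 scale (adjusted p = 0.0363). It was at 2.88, 2.67 and 2.78 in N-RAS+/+ BDL livers, against 3.21, 3.36 and 3.25 in N-RAS+/+ sham livers. Both groups were near the lowest values of the array, and the call was lost without N01, N02, N03, N04, N05 or N06 (-0.55 to -0.45, adjusted p 0.0553 to 0.110). Mmp3 differed after CCl4 in N-RAS+/+ livers by 0.72 ± 0.24 (adjusted p = 0.0549), which passed without N22 (0.96, adjusted p = 0.0169) or N26 (0.95, adjusted p = 0.0205). Mmp11 stayed between 4.26 and 5.03.

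The membrane-type Mmp are held on the cell surface, where Mmp14 activates pro-Mmp2 and cuts collagen. Mmp14 read 8.99, 8.75 and 8.94 in N-RAS-/- CCl4 livers, against 7.02, 7.83 and 6.81 in N-RAS-/- oil livers. Mmp14 in N-RAS+/+ mice read 8.18, 8.15 and 8.39 after CCl4, against 7.48, 7.89 and 7.69 after oil. Mmp14 rose by 1.67 ± 0.22 (adjusted p = 6.20e-05) in N-RAS-/- livers, and the N-RAS+/+ difference of 0.55 ± 0.22 (adjusted p = 0.110) did not pass the test although the groups did not overlap. That difference passed in a fit of only the groups compared (0.0389) and without the low Y-linked arrays (0.0244), but not with a floor at log2 5 (0.217). No Mmp14 value lay under this floor, which acted here only through the other genes in the fit. Mmp14 read 8.63, 8.67 and 8.22 in N-RAS-/- BDL livers, against 7.10, 6.85 and 7.17 in N-RAS-/- sham livers. Mmp14 in N-RAS+/+ mice read 8.71, 9.13 and 8.42 after BDL, against 7.12, 7.75 and 7.39 after sham. BDL livers of both genotypes lay above their sham livers, by 1.47 ± 0.21 (adjusted p = 4.01e-04) and 1.33 ± 0.21 (adjusted p = 0.00119). Without the sham arrays of low Y-linked signal, the N-RAS+/+ BDL value was 1.01, adjusted p = 0.178.

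Mmp15, a second membrane-type protease, was the member that fell after CCl4. Mmp15 read 6.20, 5.94 and 6.21 in N-RAS-/- CCl4 livers, against 7.55, 7.63 and 7.11 in N-RAS-/- oil livers. Mmp15 in N-RAS+/+ mice read 7.35, 6.24 and 6.62 after CCl4, against 7.76, 7.70 and 7.36 after oil. It fell by 1.31 ± 0.24 on the log2 scale (adjusted p = 9.49e-04) in N-RAS-/- livers and by 0.87 ± 0.24 (adjusted p = 0.0213) in N-RAS+/+ livers. The N-RAS+/+ livers differed among themselves, with N24 (7.35) just under the lowest oil liver, and their call was lost without N21, N22, N25 or N26 (-0.82 to -0.62, adjusted p 0.0713 to 0.120). Mmp15 read 7.95, 7.51 and 7.82 in N-RAS-/- BDL livers, against 7.71, 7.73 and 7.97 in N-RAS-/- sham livers. Mmp15 in N-RAS+/+ mice read 7.84, 8.18 and 7.77 after BDL, against 7.68, 7.41 and 7.48 after sham. BDL differences were -0.04 ± 0.16 (adjusted p = 0.906) and 0.41 ± 0.16 (adjusted p = 0.166) and did not pass the test. Mmp24 differed after CCl4 by -0.24 ± 0.19 (adjusted p = 0.409) in N-RAS-/- mice, and rose by 0.68 ± 0.19 (adjusted p = 0.0227) in N-RAS+/+ mice. The N-RAS+/+ call of Mmp24 was lost without N23, N24 or N25 (0.51 to 0.63, adjusted p 0.0713 to 0.109). Mmp16, Mmp17 and Mmp25 were low throughout.

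Of the other Mmp, Mmp23 of N-RAS+/+ livers rose with BDL, 0.96 ± 0.20 (adjusted p = 0.00971), where the N-RAS-/- difference was 0.42 ± 0.20 (adjusted p = 0.218). Mmp27 rose after CCl4 in N-RAS+/+ livers by 1.32 ± 0.34 (adjusted p = 0.0147), a call that was lost without N21 or N25 (1.07 to 1.14, adjusted p 0.0721 to 0.0848). Mmp19 was well measured on all arrays, at 8.58 to 10.13, and was called in no comparison. Mmp20, the enamel protease, and Mmp21 were low throughout, and Mmp28 stayed between 4.70 and 5.64.

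Timp1, the inhibitor that activated stellate cells are known to secrete, rose in all 4 injury comparisons. Timp1 read 7.0, 7.31 and 5.92 in N-RAS-/- CCl4 livers, against 4.72, 4.08 and 4.80 in N-RAS-/- oil livers. Timp1 in N-RAS+/+ mice read 6.29, 7.59 and 5.97 after CCl4, against 3.89, 3.78 and 4.48 after oil. No oil liver reached the lowest CCl4 liver, and the rise was 2.21 ± 0.40 (adjusted p = 8.56e-04) and 2.57 ± 0.40 (adjusted p = 5.05e-04). Timp1 read 7.09, 6.91 and 7.28 in N-RAS-/- BDL livers, against 4.59, 4.49 and 3.70 in N-RAS-/- sham livers. Timp1 in N-RAS+/+ mice read 7.69, 6.76 and 6.50 after BDL, against 4.22, 4.52 and 3.40 after sham. The BDL rise was 2.84 ± 0.33 (adjusted p = 9.39e-05), 7.14-fold, and 2.93 ± 0.33 (adjusted p = 9.40e-05), 7.64-fold. All 4 calls were kept when any single array was left out. All oil and sham livers were under log2 5, and with such signals set to 5 the N-RAS+/+ CCl4 call was lost (1.61, adjusted p = 0.0533). Without the sham arrays of low Y-linked signal the N-RAS+/+ BDL rise was 2.46 (adjusted p = 0.0198), and with that signal as a term the N-RAS-/- BDL value was 2.25, adjusted p = 0.0548. The mean of 7 measured stellate cell markers of 8 was 6.98 to 7.42 in N-RAS-/- CCl4 livers and 6.21 to 6.23 in N-RAS-/- oil livers, and 6.18 to 6.92 and 6.19 to 6.37 in N-RAS+/+ CCl4 and oil livers. After BDL it was 6.53 to 7.89 in N-RAS-/- livers, against 5.88 to 6.0 after sham, and 6.51 to 6.88 in N-RAS+/+ livers, against 6.08 to 6.26 after sham. The 7.89 was that of N12, the array with muscle RNA, while N10 and N11 had 6.53 and 6.89. Des, a gene of this marker list, read 8.40 on N12, against at most 5.51 elsewhere. The 7 markers did not move together. After BDL, Acta2, Tagln, Pdgfrb and Lox lay above all sham livers in both genotypes, and Reln lay below them. Lrat and Des overlapped with sham in both. The part of the stellate cell marker mean in the Timp1 values was not tested.

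**Figure D3:**
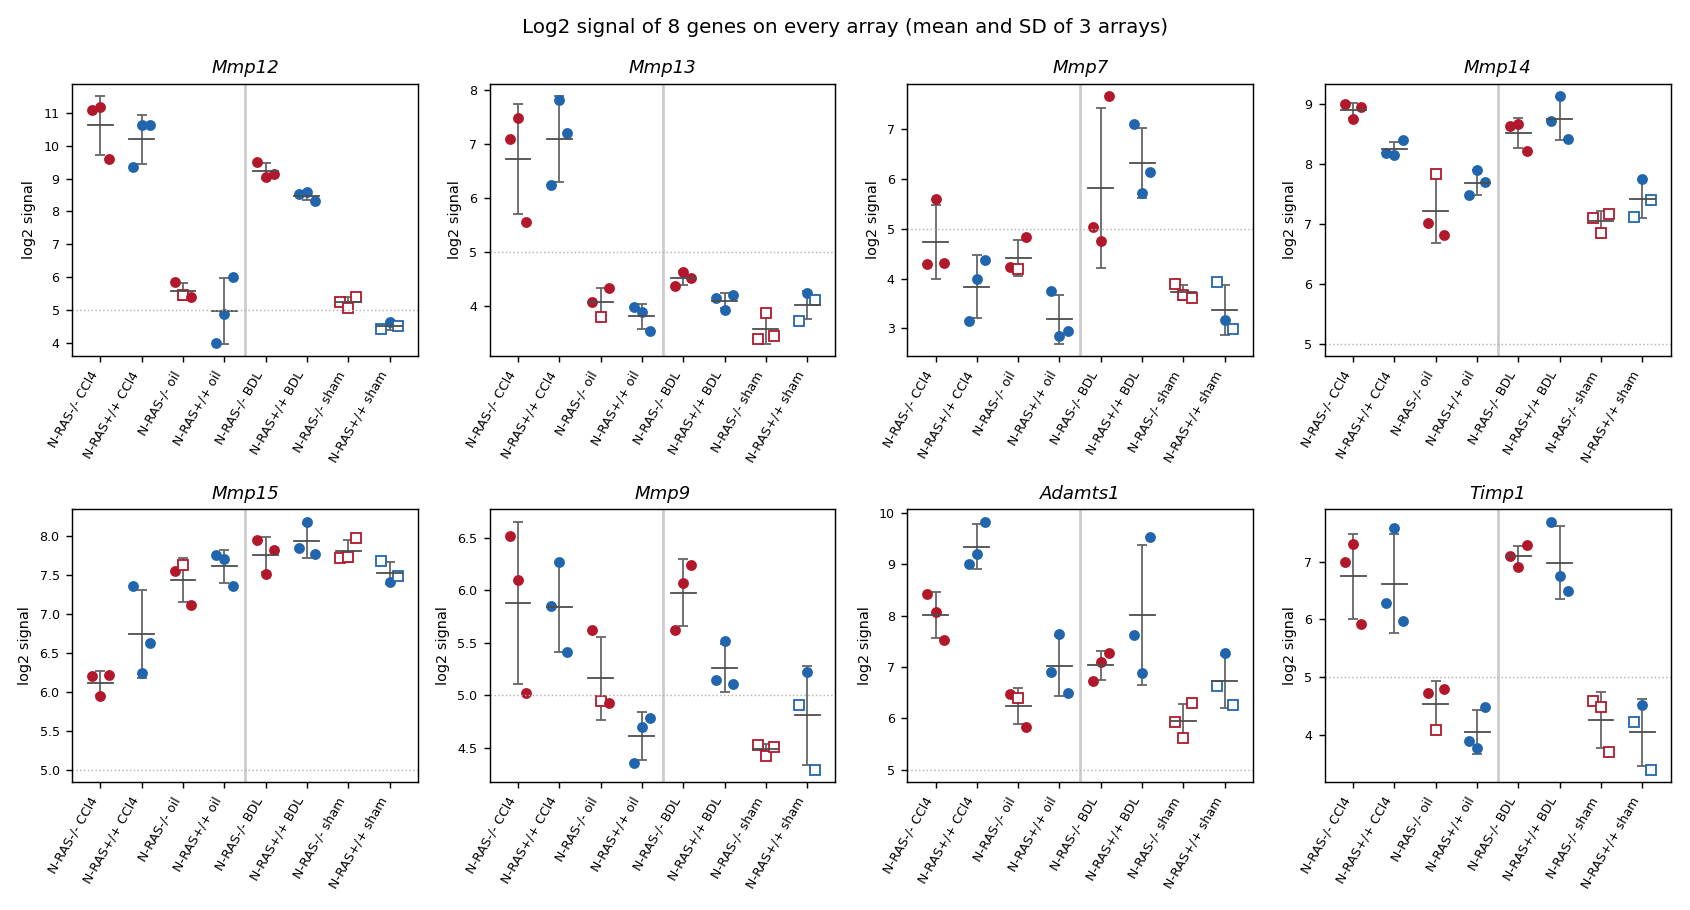
Log2 signal of 8 members on every array (y axis, 1 point per liver), with the mean and SD of 3 livers per group. Groups run from N-RAS-/- CCl4 to N-RAS+/+ oil left of the grey line and from N-RAS-/- BDL to N-RAS+/+ sham right of it, open squares are arrays of low Y-linked signal, and the dotted line is log2 5. Mmp12 and Timp1 are high in all 4 injured groups, Mmp13 in the CCl4 groups, and Mmp7 in the N-RAS+/+ BDL group and on N12 of the N-RAS-/- BDL group.

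Timp2, which inhibits Mmp and also takes part in the activation of pro-Mmp2 by Mmp14, rose after BDL. Timp2 read 7.88, 7.89 and 8.69 in N-RAS-/- BDL livers, against 7.19, 6.87 and 6.92 in N-RAS-/- sham livers. Timp2 in N-RAS+/+ mice read 8.17, 7.40 and 7.55 after BDL, against 6.80, 6.77 and 6.82 after sham. The groups did not overlap, with rises of 1.16 ± 0.23 (adjusted p = 0.00440) and 0.91 ± 0.23 (adjusted p = 0.0256). The second call was lost without N01, N02, N03 or N04 (0.68 to 0.92, adjusted p 0.0551 to 0.107). Timp2 read 7.72, 7.84 and 7.23 in N-RAS-/- CCl4 livers, against 7.11, 7.19 and 7.26 in N-RAS-/- oil livers. Timp2 in N-RAS+/+ mice read 6.53, 7.05 and 7.45 after CCl4, against 6.59, 6.60 and 6.89 after oil. After CCl4 the groups overlapped in both genotypes, and the differences were 0.41 ± 0.21 (adjusted p = 0.206) and 0.31 ± 0.21 (adjusted p = 0.398). Timp4 was low throughout. Timp4 read 3.06, 3.34 and 3.37 in N-RAS-/- BDL livers, against 2.94, 3.0 and 3.03 in N-RAS-/- sham livers. Timp4 in N-RAS+/+ mice read 4.19, 4.89 and 3.68 after BDL, against 3.03, 3.04 and 2.98 after sham. Timp4 differed after BDL by 0.26 ± 0.23 (adjusted p = 0.537) in N-RAS-/- mice, and rose by 1.23 ± 0.23 (adjusted p = 0.00401) in N-RAS+/+ mice. Timp4 read 2.62, 3.07 and 3.26 in N-RAS-/- CCl4 livers, against 3.05, 2.96 and 3.19 in N-RAS-/- oil livers. Timp4 in N-RAS+/+ mice read 2.79, 3.17 and 3.10 after CCl4, against 3.17, 3.05 and 3.21 after oil. No CCl4 or oil liver reached 3.30. With signals under log2 5 set to 5, no difference of Timp4 was left. Timp3, the inhibitor that binds to the matrix, was at 6.33 to 7.83 and was called in no comparison.

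Adamts1, Adamts4, Adamts5 and Adamts9 cut large proteoglycans such as versican and aggrecan. Adamts1 rose after CCl4. Adamts1 read 8.42, 8.07 and 7.53 in N-RAS-/- CCl4 livers, against 6.48, 6.40 and 5.84 in N-RAS-/- oil livers. Adamts1 in N-RAS+/+ mice read 9.0, 9.21 and 9.83 after CCl4, against 6.91, 7.65 and 6.50 after oil. The rise was 1.77 ± 0.30 (adjusted p = 5.91e-04) in N-RAS-/- livers and 2.33 ± 0.30 (adjusted p = 1.14e-04) in N-RAS+/+ livers, without overlap in either. Adamts1 read 6.72, 7.10 and 7.27 in N-RAS-/- BDL livers, against 5.93, 5.61 and 6.29 in N-RAS-/- sham livers. Adamts1 in N-RAS+/+ mice read 7.62, 6.88 and 9.53 after BDL, against 6.63, 7.28 and 6.25 after sham. In N-RAS+/+ BDL livers 1 array, N06, stood far above N04 and N05, and the difference of 1.29 ± 0.49 (adjusted p = 0.147) did not pass the test. It passed without N05 (1.86, adjusted p = 0.027).

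Adamts4 rose in every injury comparison. Adamts4 read 5.56, 5.34 and 5.35 in N-RAS-/- CCl4 livers, against 3.90, 3.93 and 4.31 in N-RAS-/- oil livers. Adamts4 in N-RAS+/+ mice read 5.96, 6.65 and 6.18 after CCl4, against 3.48, 4.80 and 4.45 after oil. The N-RAS-/- rise was 1.37 ± 0.27 (adjusted p = 0.00191) and the N-RAS+/+ rise 2.02 ± 0.27 (adjusted p = 1.58e-04). Adamts4 read 4.95, 4.77 and 5.10 in N-RAS-/- BDL livers, against 3.66, 4.0 and 3.92 in N-RAS-/- sham livers. Adamts4 in N-RAS+/+ mice read 5.34, 4.88 and 5.53 after BDL, against 3.87, 4.19 and 3.81 after sham. BDL raised it by 1.08 ± 0.18 (adjusted p = 0.00142) and 1.30 ± 0.18 (adjusted p = 5.23e-04), and no groups overlapped. With signals under log2 5 set to 5, the N-RAS-/- CCl4 call and both BDL calls of Adamts4 were lost, with 0.42, adjusted p = 0.0987 after CCl4, and 0.03, adjusted p = 1.0 and 0.29, adjusted p = 0.216 after BDL in N-RAS-/- and N-RAS+/+ mice. Adamts5 rose after BDL by 0.67 ± 0.16 (adjusted p = 0.0149) in N-RAS-/- livers and 0.72 ± 0.16 (adjusted p = 0.0142) in N-RAS+/+ livers, with values between 4.74 and 5.33 in BDL livers. These calls were lost without N08, N11 or N12 (0.60 to 0.64, adjusted p 0.0567 to 0.0681) and without N01 or N04 (0.59 to 0.69, adjusted p 0.0604 to 0.0660). Adamts9 of N-RAS+/+ livers rose with BDL, 0.72 ± 0.19 (adjusted p = 0.0305), and the call was lost without N01, N03, N04 or N06 (0.61 to 0.74, adjusted p 0.0805 to 0.128).

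Adamts2, the protease that removes the N-terminal end of procollagen, rose after BDL. Adamts2 read 6.21, 6.53 and 7.42 in N-RAS-/- BDL livers, against 5.57, 5.61 and 5.12 in N-RAS-/- sham livers. Adamts2 in N-RAS+/+ mice read 7.10, 6.47 and 6.75 after BDL, against 5.44, 5.77 and 5.92 after sham. BDL livers lay above sham livers by 1.28 ± 0.27 (adjusted p = 0.00670) and 1.06 ± 0.27 (adjusted p = 0.0282), the second call being lost without N01, N04 or N06 (0.90 to 1.07, adjusted p 0.0666 to 0.123). Adamts2 read 6.44, 6.64 and 6.41 in N-RAS-/- CCl4 livers, against 5.95, 5.96 and 6.17 in N-RAS-/- oil livers. Adamts2 in N-RAS+/+ mice read 5.60, 5.82 and 6.08 after CCl4, against 5.66, 5.92 and 5.35 after oil. The CCl4 differences were 0.47 ± 0.17 (adjusted p = 0.0635), without overlap, and 0.19 ± 0.17 (adjusted p = 0.545). Adamts3 and Adamts14, the related procollagen proteases, were called in no comparison.

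Adamts12 cuts cartilage matrix proteins. Adamts12 read 6.90, 6.67 and 7.03 in N-RAS-/- BDL livers, against 6.09, 5.98 and 6.24 in N-RAS-/- sham livers. Adamts12 in N-RAS+/+ mice read 6.50, 7.09 and 7.06 after CCl4, against 6.43, 6.17 and 5.79 after oil. Adamts12 rose with BDL in the N-RAS-/- mice, 0.77 ± 0.17 (adjusted p = 0.00899), and with CCl4 in the N-RAS+/+ mice, 0.76 ± 0.24 (adjusted p = 0.0423), a call that was lost without N22, N23, N25 or N26 (0.58 to 0.78, adjusted p 0.0887 to 0.172). Adamts12 read 6.79, 7.12 and 6.44 in N-RAS-/- CCl4 livers, against 6.27, 6.02 and 6.72 in N-RAS-/- oil livers. Adamts12 in N-RAS+/+ mice read 6.64, 6.86 and 6.68 after BDL, against 5.82, 6.48 and 6.14 after sham. In these groups it was not called, with 0.44 ± 0.24 (adjusted p = 0.209) after CCl4 and 0.58 ± 0.17 (adjusted p = 0.0542) after BDL. The BDL livers of N-RAS+/+ mice nevertheless all lay above their sham livers. Adamts13, which cuts von Willebrand factor and is made by stellate cells, fell after BDL. Adamts13 read 2.57, 3.71 and 4.07 in N-RAS-/- BDL livers, against 5.40, 4.95 and 4.96 in N-RAS-/- sham livers. Adamts13 in N-RAS+/+ mice read 4.08, 4.31 and 3.33 after BDL, against 4.83, 5.12 and 5.27 after sham. The fall was -1.65 ± 0.33 (adjusted p = 0.00475) in N-RAS-/- livers and -1.16 ± 0.33 (adjusted p = 0.0490) in N-RAS+/+ livers, and no BDL liver reached a sham liver. The N-RAS+/+ call was lost without N01, N02, N03, N04 or N06 (-1.28 to -0.87, adjusted p 0.0813 to 0.179). Adamts13 read 4.14, 4.04 and 4.63 in N-RAS-/- CCl4 livers, against 5.08, 4.53 and 4.47 in N-RAS-/- oil livers. Adamts13 in N-RAS+/+ mice read 3.88, 3.92 and 4.46 after CCl4, against 5.05, 5.11 and 4.35 after oil. The CCl4 groups overlapped with oil and differed by -0.42 ± 0.24 (adjusted p = 0.251) and -0.75 ± 0.24 (adjusted p = 0.0510), the second of which passed without N23 or N26 (-1.0 to -0.94, adjusted p 0.0164 to 0.0318). With signals under log2 5 set to 5, the BDL values of Adamts13 were -0.13, adjusted p = 0.682 in N-RAS-/- mice and -0.13, adjusted p = 0.767 in N-RAS+/+ mice. Of the 19 Adamts genes, 12 were called in no comparison, and 7 of these were low throughout.

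The responses to the 2 injuries were set against each other within each genotype, as the CCl4 effect minus the BDL effect over all 24 arrays, so that experiment and kind of injury cannot be told apart. In N-RAS-/- livers 1 member responded more to CCl4 and 1 less (4.40% and 4.74% of all genes), and in N-RAS+/+ livers 1 more and 3 less (1.40% and 1.56%). Mmp13 responded more to CCl4, by 1.70 ± 0.50 (adjusted p = 0.0345) in N-RAS-/- livers and 3.20 ± 0.50 (adjusted p = 5.22e-04) in N-RAS+/+ livers. Mmp15 responded in the downward direction to CCl4, the effects being apart by -1.27 ± 0.30 (adjusted p = 0.00837) in N-RAS-/- mice and -1.28 ± 0.30 (adjusted p = 0.0182) in N-RAS+/+ mice. Timp4 and Mmp23 were also called in N-RAS+/+ livers, Timp4 at -1.36 ± 0.29 (adjusted p = 0.00982) and Mmp23 at -1.07 ± 0.28 (adjusted p = 0.0385), while N-RAS-/- livers gave -0.35 ± 0.29 (adjusted p = 0.555) for Timp4 and -0.25 ± 0.28 (adjusted p = 0.684) for Mmp23. For Mmp7 the values were -1.78 ± 0.76 (adjusted p = 0.162) in N-RAS-/- mice and -2.30 ± 0.76 (adjusted p = 0.113) in N-RAS+/+ mice, neither of them called. Mmp12 and Timp1 did not pass either, at 1.05 ± 0.57 (adjusted p = 0.293) in N-RAS-/- mice and 1.28 ± 0.57 (adjusted p = 0.282) in N-RAS+/+ mice for Mmp12 (95% intervals -0.12 to 2.22 and 0.11 to 2.45) and -0.63 ± 0.57 (adjusted p = 0.588) and, in N-RAS+/+ mice, -0.37 ± 0.57 (adjusted p = 0.843) for Timp1. The N-RAS-/- call of Mmp13 was lost without N08, N10, N12, N27, N28, N30 or N31 (1.31 to 1.71, adjusted p 0.0578 to 0.107). The N-RAS+/+ calls of Mmp15 and Mmp23 were lost without N05, N21, N25 or N26 (-1.22 to -1.03, adjusted p 0.0506 to 0.0648) and without N01, N02, N03, N04, N06, N21, N22, N23, N24 or N25 (-1.12 to -0.89, adjusted p 0.0535 to 0.104). Without the 6 arrays of low Y-linked signal, Mmp13 alone passed in N-RAS+/+ livers (3.42, adjusted p = 0.0122).

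**Figure D4:**
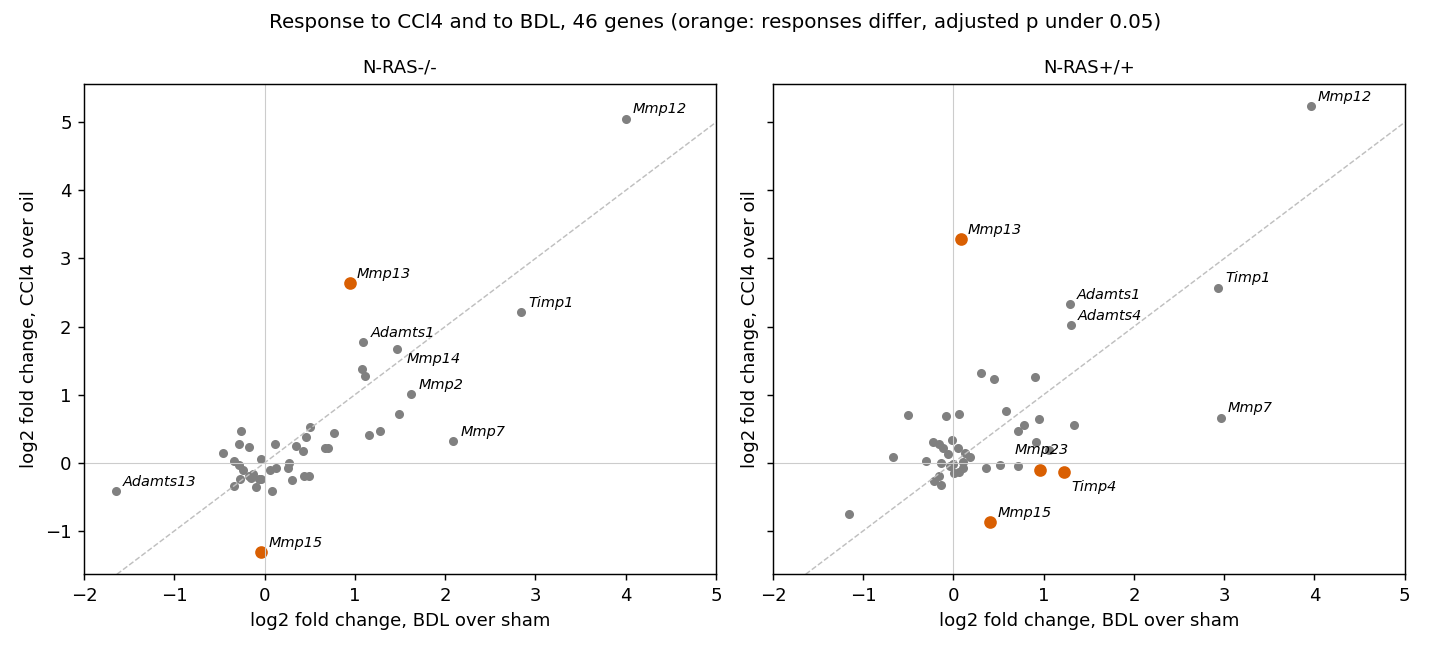
Log2 fold change after CCl4 over oil (y axis) against that after BDL over sham (x axis) for the 46 genes in N-RAS-/- (left) and N-RAS+/+ (right) livers, with the line of equal change dashed. Orange points are genes whose responses differed at an adjusted p under 0.05: Mmp13 lies above the line and Mmp15 below it in both panels, and Mmp23 and Timp4 lie below it in N-RAS+/+ livers.

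Between the genotypes, few members differed after injury. In CCl4 livers 1 member was higher and 3 were lower in N-RAS-/- mice when set against N-RAS+/+ mice, where 8.72% of all genes were called higher and 5.56% lower. Adamts1 read 8.42, 8.07 and 7.53 in N-RAS-/- CCl4 livers, against 9.0, 9.21 and 9.83 in N-RAS+/+ CCl4 livers, a difference of -1.33 ± 0.30 (adjusted p = 0.00879). Its CCl4 response differed between the genotypes by -0.56 ± 0.43 (adjusted p = 0.557). Adamts4 also read lower without overlap, -0.85 ± 0.27 (adjusted p = 0.0504), just outside the threshold, and it passed without N24 (-1.0, adjusted p = 0.0488). In some other settings it passed as well: only the groups compared (adjusted p = 0.0156), all 24 arrays (0.0201), a floor at log2 5 (0.0107) and a trended fit (0.0442). Mmp24 differed by -0.66 ± 0.19 (adjusted p = 0.0296) and Mmp3 by -0.81 ± 0.24 (adjusted p = 0.0332), both at low signal. Mmp3 read 3.33, 3.38 and 3.61 in N-RAS-/- CCl4 livers and 4.52, 4.45 and 3.80 in N-RAS+/+ CCl4 livers. Adamts2 was higher, with 6.44, 6.64 and 6.41 in N-RAS-/- CCl4 livers against 5.60, 5.82 and 6.08 in N-RAS+/+ CCl4 livers, by 0.66 ± 0.17 (adjusted p = 0.0187). The calls of Mmp24, Mmp3 and Adamts2 were lost without N24, N25, N30 or N31 (-0.67 to -0.54, adjusted p 0.0668 to 0.121), without N24, N25, N30 or N31 (-0.79 to -0.68, adjusted p 0.0865 to 0.121) and without N24, N25 or N31 (0.54 to 0.66, adjusted p 0.0584 to 0.0779). With signals under log2 5 set to 5, Adamts1 was -1.33, adjusted p = 0.0550, Mmp24 was -0.27, adjusted p = 0.118 and Mmp3 showed no difference. No Adamts1 value lay under this floor (lowest 5.61), which acted on its adjusted p only through the other genes in the fit. The count of 4 was 2 without N24, N25 or N30 and 1 without N31.

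Mmp14 differed between genotypes in CCl4 livers by 0.65 ± 0.22 (adjusted p = 0.0595), with every N-RAS-/- liver (8.75 to 8.99) above every N-RAS+/+ liver (8.15 to 8.39). The same difference passed in a fit of only the groups compared (adjusted p = 0.0185), with all 24 arrays (0.0478), with the filter on low signal (0.0452), in a trended fit (0.0397), without the low Y-linked arrays (0.0115) and with that signal as a term (0.0141). It did not pass in every setting, since with signals under log2 5 set to 5 it was 0.65 (adjusted p = 0.144). As no Mmp14 value lay under log2 5, the floor acted on this gene only through the other genes in the fit. Its CCl4 response was larger in N-RAS-/- livers by 1.12 ± 0.31. In the fit of the CCl4 experiment alone, this response difference missed the threshold (adjusted p = 0.0695). It passed with all 24 arrays (adjusted p = 0.0470) and in a trended fit (0.0425). With the Y-linked signal as a term it was 1.40 (adjusted p = 0.00933). With signals under log2 5 set to 5 it did not pass (adjusted p = 0.167). Without N-RAS-/- oil array N28, which had low Y-linked signal and the highest Mmp14 of its group (7.83), this difference was 1.43 (adjusted p = 0.00685). For Mmp24 the responses differed by -0.93 ± 0.27 (adjusted p = 0.0808). In the fits of each experiment alone, no member passed the test of the genotype difference of the CCl4 response (2.36% of all genes passed). The same held for the BDL response (0.00%).

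In BDL livers, Mmp12 was the 1 member called higher in N-RAS-/- than in N-RAS+/+ mice, and 0 were lower (0.525% and 0.180% of all genes). It read 9.50, 9.05 and 9.15 in N-RAS-/- BDL livers, against 8.52, 8.58 and 8.32 in N-RAS+/+ BDL livers, 0.76 ± 0.15 (adjusted p = 0.0387). The sham livers differed by 0.71 ± 0.15 (adjusted p = 0.0699), also without overlap, and the BDL effect differed between the genotypes by 0.04 ± 0.21 (adjusted p = 0.984). In CCl4 and oil livers the genotypes overlapped, at 0.41 ± 0.48 (adjusted p = 0.620) after CCl4 and 0.61 ± 0.48 (adjusted p = 0.671) after oil. The call for BDL did not hold without N04, N06, N10, N11 or N12 (0.62 to 0.85, adjusted p 0.0595 to 0.130) or in a fit of the 6 BDL arrays alone (0.76, adjusted p = 0.151).

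Timp4 differed between the genotypes in BDL livers by -1.0 ± 0.23 (adjusted p = 0.0685), which passed without N06 (-1.28, adjusted p = 0.0119), and its BDL response differed by -0.97 ± 0.32 (adjusted p = 0.599). Mmp27 of N-RAS-/- livers stood above that of N-RAS+/+ livers without overlap in 3 of the 4 treatments. It read 4.90, 4.57 and 5.76 in N-RAS-/- oil livers, against 3.47, 4.16 and 3.89 in N-RAS+/+ oil livers. Mmp27 after sham surgery was 4.90, 4.95 and 4.99 in N-RAS-/- livers, against 4.22, 4.20 and 4.60 in N-RAS+/+ livers. Mmp27 after BDL was 5.34, 6.33 and 5.26 in N-RAS-/- livers, against 4.62, 4.95 and 4.40 in N-RAS+/+ livers. None of these passed the test over all genes, with 1.24 ± 0.34 (adjusted p = 0.112), 0.61 ± 0.24 (adjusted p = 0.544) and 0.99 ± 0.24 (adjusted p = 0.0949) in this order, and the CCl4 groups overlapped, 0.13 ± 0.34 (adjusted p = 0.844). Mmp7 in oil livers was likewise higher without overlap, 1.24 ± 0.37 (adjusted p = 0.153).

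The genotypes did not overlap for 12 of the 46 members in CCl4 livers (32.7% of all genes), 12 in oil livers (17.6%), 8 in BDL livers (16.6%) and 6 in sham livers (14.3%). Among these, but not called, was Mmp9 in BDL livers, at 5.62 to 6.24 in N-RAS-/- and 5.11 to 5.52 in N-RAS+/+ mice. So was Mmp15 in CCl4 livers, lower in N-RAS-/- mice (5.94 to 6.21) than in N-RAS+/+ mice (6.24 to 7.35). Mmp9 in CCl4 livers and Mmp15 in BDL livers overlapped between the genotypes. In oil and sham livers 0 members were called by limma, against 0.847% and 0.426% of all genes. At an unadjusted p under 0.05 there were 7 in oil and 4 in sham livers (12.5% and 7.88% of all genes), and the methods' t-test gave 6 and 4 without adjustment (10.3% and 7.72%). The 3 N-RAS-/- sham arrays all had low Y-linked signal, so that genotype and this signal are mixed there as well.

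**Figure D5:**
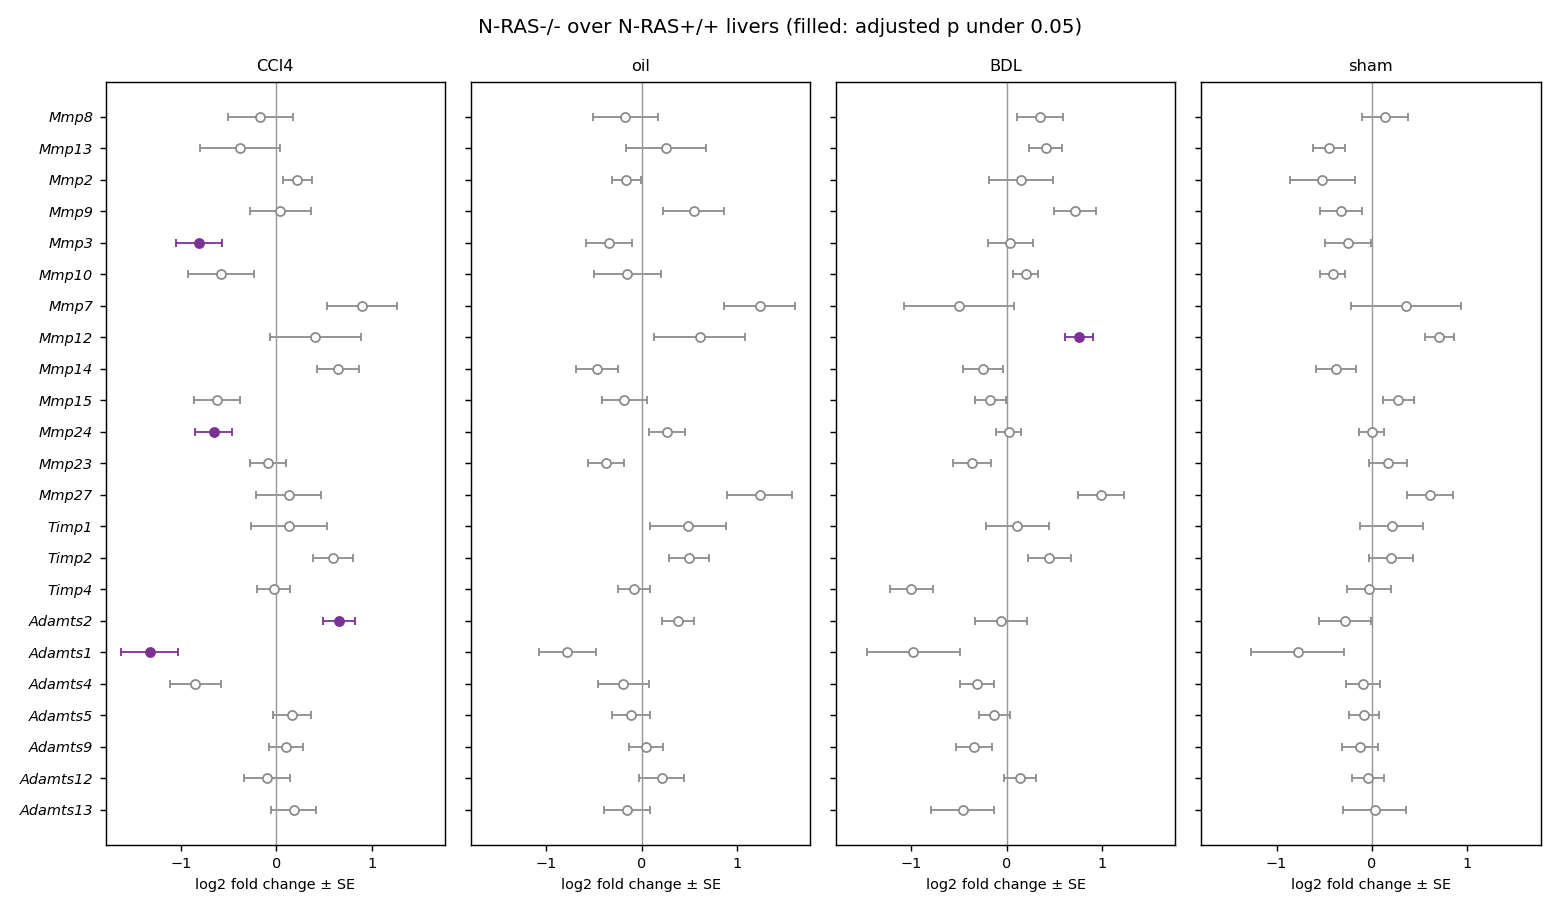
Log2 fold change ± SE (x axis) of N-RAS-/- over N-RAS+/+ livers for the same 23 members (rows) under CCl4, oil, BDL and sham, each with 3 livers per genotype. Filled points passed an adjusted p under 0.05: Adamts2 is above 0 and Mmp3, Mmp24 and Adamts1 below 0 under CCl4, and Mmp12 above 0 under BDL.

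The other genes of matrix turnover were counted from lists, to be read against the shares of all genes. These were 13.6% higher and 9.19% lower after CCl4 in N-RAS-/- livers and 8.08% and 7.16% in N-RAS+/+ livers, and 7.18% and 4.05% after BDL in N-RAS-/- livers and 4.51% and 2.70% in N-RAS+/+ livers. The plasminogen system activates pro-Mmp, and 9 of its 10 listed genes were measured. In CCl4 livers 3 rose and 3 fell in N-RAS-/- mice, and 3 rose and 1 fell in N-RAS+/+ mice. After BDL 4 rose and 1 fell in N-RAS-/- livers, and 3 rose and 0 fell in N-RAS+/+ livers. Plaur, the urokinase receptor, rose after CCl4 by 2.73 ± 0.23 (adjusted p = 8.54e-07) in N-RAS-/- livers and 3.65 ± 0.23 (adjusted p = 1.36e-07) in N-RAS+/+ livers, and was lower in N-RAS-/- CCl4 livers relative to N-RAS+/+ CCl4 livers, -0.87 ± 0.23 (adjusted p = 0.0182). Plat, tissue plasminogen activator, rose in all 4 injury comparisons, by 0.89 to 1.60. Hpn, the hepatocyte surface protease hepsin, fell after CCl4, with -1.37 ± 0.17 (adjusted p = 4.76e-05) and -0.97 ± 0.17 (adjusted p = 0.00147).

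Of 14 other protease inhibitors and activators, 2 rose and 2 fell after CCl4 in N-RAS-/- livers and 0 and 1 in N-RAS+/+ livers, and after BDL 2 and 1 in N-RAS-/- livers and 1 and 0 in N-RAS+/+ livers. After CCl4 in N-RAS-/- livers these counts lie near the shares of all genes. Adam10, a sheddase, rose after BDL by 1.08 ± 0.12 (adjusted p = 8.22e-05) and 0.84 ± 0.12 (adjusted p = 7.31e-04). In N-RAS-/- CCl4 livers Adam10 read 8.78, 8.76 and 8.64, above all N-RAS-/- oil livers (7.86 to 8.20) and all N-RAS+/+ CCl4 livers (7.90 to 8.19). In N-RAS+/+ mice the CCl4 and oil livers overlapped. Lrp1, the receptor that clears Mmp and Timp complexes, read lower after CCl4 in N-RAS-/- livers relative to N-RAS+/+ livers, -0.66 ± 0.16 (adjusted p = 0.0111), and its CCl4 response differed between genotypes by -0.92 ± 0.22 (adjusted p = 0.0415). Pcsk5, a proprotein convertase, was higher in N-RAS-/- CCl4 livers by 1.11 ± 0.26 (adjusted p = 0.0100). Bmp1, the procollagen C-proteinase, fell after CCl4 in N-RAS-/- livers, -0.72 ± 0.16 (adjusted p = 0.00474). Of 6 Adamts-like genes, which lack the protease domain, Adamtsl2 rose after BDL by 0.81 ± 0.16 (adjusted p = 0.00501) and 0.93 ± 0.16 (adjusted p = 0.00283) and was not called after CCl4.

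Of 23 substrates, 10 rose after CCl4 in N-RAS-/- livers and 9 in N-RAS+/+ livers, and 13 and 10 rose after BDL, with 0 falling in any of the 4. Col1a1, the main fibrillar collagen chain, rose after CCl4 by 0.83 ± 0.16 (adjusted p = 0.00154) and 0.61 ± 0.16 (adjusted p = 0.0176) and after BDL by 1.25 ± 0.26 (adjusted p = 0.00600) and 1.08 ± 0.26 (adjusted p = 0.0204). Nid1, a basement membrane linker, rose by 1.59 to 2.54 and Lamc1, a laminin chain, by 0.75 to 2.13 in the 4 comparisons. Thbs1, thrombospondin, rose by 2.63 to 3.56. Spp1, osteopontin, rose after BDL by 3.99 ± 0.30 (adjusted p = 2.58e-06) and 3.52 ± 0.30 (adjusted p = 1.33e-05) in the N-RAS-/- and the N-RAS+/+ mice. With CCl4, Spp1 differed by 0.08 ± 0.28 (adjusted p = 0.872) in N-RAS-/- mice, and in N-RAS+/+ mice it rose by 1.66 ± 0.28 (adjusted p = 0.00115). The CCl4 responses of the genotypes differed by -1.57 ± 0.40 (adjusted p = 0.0550), which did not pass the test.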

How the data were processed

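RNA from 24 livers was hybridised to Affymetrix mouse arrays, 1 array per mouse. The values used are log2 signals as deposited by the authors, who normalised them before deposit by a procedure not given in the sources used here. The labels name MAS5 without a role. The deposited workbook also holds group means as linear signal, which equalled the mean of the back-transformed log2 values, and the authors' ratios (fold changes) and p-values for their own comparisons, which were not used. Depth has no meaning for arrays, and precision is limited by 3 arrays per group. Nothing says more of the replicates than that each is a separate animal.

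Of 22206 probe sets, 21367 had 1 symbol, 836 several and 3 none. Of the symbols, 882 were updated, and the 143 genes with several probe sets kept the probe set with the highest mean, which left 21144 genes. Groups were fitted in limma 3.58.1 (R 4.3.3) as group means over the 12 arrays of an experiment, or over all 24 for the comparison of injuries, with empirical Bayes moderation and Benjamini-Hochberg adjustment. The procedure was tested on simulated data. Members were taken by family symbol, and up to 16 called members of smallest adjusted p, with Mmp9, Mmp12, Mmp15 and Timp1, are described by array. Of each other gene list, up to 4 genes of smallest adjusted p and Col1a1 were named. One gene so chosen is not reported here. The members, lists and tests were chosen with earlier results of these data known. Alternatives covered the arrays fitted, normalisation, a filter and a floor on low signal, a trended fit, the methods' t-test, the Y-linked signal and each array left out. Protein sequences were not used here.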

Additional observations from a re-analysis of the deposited data

Results flagged for a closer look

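For 4 members the response to CCl4 and the response to BDL differed by a test of the difference itself. In N-RAS-/- livers the CCl4 effect minus the BDL effect was 1.70 for Mmp13 and -1.27 for Mmp15 (log2). In N-RAS+/+ livers it was 3.20 for Mmp13, -1.28 for Mmp15, -1.07 for Mmp23 and -1.36 for Timp4. Timp4 was low throughout, and with signals under log2 5 set to 5 its difference was 0.00. As given above, single arrays left out removed the N-RAS-/- call of Mmp13 and the N-RAS+/+ calls of Mmp15 and Mmp23. The experiments were run on separate sets of mice, so that kind of injury and experiment cannot be told apart.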

How the results depend on the processing

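The counts of members called moved with the handling of low signal and with single arrays. With a filter at the 40th percentile they were 7 for CCl4 in N-RAS+/+ livers (12 as reported), 8 for BDL in both N-RAS-/- and N-RAS+/+ livers (14 each), 1 for sham livers between genotypes (0), and 1 and 2 for the CCl4 against BDL responses in N-RAS-/- and N-RAS+/+ livers (2 and 4). With a floor at log2 5 they were 5 for CCl4 in N-RAS+/+ livers, 7 and 4 for BDL in N-RAS-/- and N-RAS+/+ livers, 2 and 0 between genotypes in CCl4 and BDL livers (4 and 1) and 1 for the response difference in N-RAS-/- livers. Fitting only the groups compared gave 7 and 0 between genotypes in CCl4 and BDL livers and 1 for the N-RAS-/- response difference. All 24 arrays gave 7 in CCl4 livers and 2 for the genotype difference of the CCl4 response (0). Quantile normalisation gave 2 in CCl4 livers and median centring 0 in BDL livers. A trended fit gave 7 and 2 between genotypes in CCl4 and BDL livers and 1 for the CCl4 response difference.

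Without the arrays of low Y-linked signal the counts were 2 for BDL in N-RAS+/+ livers, 0 between genotypes in BDL livers, 1 for the genotype difference of the CCl4 response and 1 for the N-RAS+/+ response difference. With that signal as a term they were 1 and 3 for BDL in N-RAS-/- and N-RAS+/+ livers and 1 for the genotype difference of the CCl4 response. As said above, that term cannot decide whether a BDL call in N-RAS-/- livers holds. The methods' t-test called 15 members for CCl4 in N-RAS-/- livers (9 as reported) and 7, 5, 6 and 4 between genotypes in CCl4, BDL, oil and sham livers without adjustment. After Benjamini-Hochberg it called 5 and 0 for CCl4 and 5 and 1 for BDL in N-RAS-/- and N-RAS+/+ livers, and 0 between genotypes in CCl4 and in BDL livers.

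Leaving out each array gave 8 to 11 and 5 to 11 members for CCl4 in N-RAS-/- and N-RAS+/+ livers, 12 to 14 and 7 to 15 for BDL, 1 to 6, 0 to 1, 0 to 0 and 0 to 0 between genotypes in CCl4, BDL, oil and sham livers, 0 to 1 and 0 to 0 for the genotype differences of the CCl4 and BDL responses, and 1 to 3 and 2 to 4 for the response differences in N-RAS-/- and N-RAS+/+ livers. Of 60 calls of single members, 36 were kept in every such fit, and no called result changed sign under any alternative. Alternatives were run for 107 results of single members, all the called ones and a chosen part of the others. Among these, results that were not called changed sign 17 times. Mmp13 after BDL in N-RAS+/+ livers (0.08) was -0.14 without the arrays of low Y-linked signal, -0.12 with that signal as a term and -0.07 without N01. Mmp15 after BDL in N-RAS-/- livers (-0.04) was 0.11 with that term, 0.04 without N09 and 0.08 without N11. The response difference of Timp1 in N-RAS+/+ livers (-0.37) was 0.11 without the arrays of low Y-linked signal and 0.18 with the term. Mmp7 after CCl4 in N-RAS-/- livers (0.32) ranged over -0.12 without N31 to 0.54, and between genotypes in BDL livers (-0.50) it ranged over -1.43 to 0.03, the last without N11. Between genotypes in CCl4 livers, Mmp27 (0.13) was -0.11 without N24 and -0.15 without N30, and at most 0.44, and Mmp12 (0.41) ranged over -0.01 without N24 to 0.93. The genotype difference of the BDL response of Mmp12 (0.04) was -0.02, -0.03, -0.04 and -0.09 without N02, N06, N08 and N10. No paired analysis was possible because the groups share no replicate numbers. Precision is limited by 3 arrays per group, and 17 members lay under log2 5 on all arrays.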
